A study of Mus musculus with 66 samples.

Results

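Blood mononuclear cells of C57BL/6 mouse pups exposed to hyperoxia (75% oxygen) were compared with those of pups kept in normoxia (21% oxygen) on postnatal day 17 (P17). The arrays were chosen by their titles, and 24 of the 66 arrays of the study belonged to the comparison, 12 of hyperoxia and 12 of normoxia. Each array held total RNA of 1 mouse beside a commercial reference RNA that was the same on all arrays. The other arrays came from pups of both oxygen conditions at P12 (10 and 11 arrays) and P28 (10 and 11 arrays), and they are used here only to show how P17 differed from these ages. Exposure ran from P7 to P12 and all pups breathed room air afterwards, so the P17 hyperoxia pups had been out of oxygen for 5 days. The labels name no transgene and no drug treatment in any group. Per the methods of the study, pups were anaesthetised with zolazepam, tiletamine, xylazine and fentanyl before their blood was drawn from the heart. Whole litters were assigned to 1 oxygen condition, and the labels do not tell which pups shared a litter, so the p-values below take each mouse as independent.

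In oxygen-induced retinopathy, a model of retinopathy of prematurity, high oxygen stops the growth of retinal vessels and removes part of those already formed. On return to room air the avascular retina becomes hypoxic, releases vascular growth factors and grows abnormal new vessels, which are most extensive at about P17. Blood mononuclear cells are the lymphocytes, monocytes and other light cells left after density centrifugation, and the question here was whether their transcripts differed between the groups at that stage.

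All values are log2(Cy3/Cy5), with Cy3 read as the blood channel. The labels name Cy5 as the blood dye, but globin and other blood transcripts were far brighter in Cy3 than in Cy5. Should the dyes be as labelled, each ratio given here has the opposite sign, and differences within Cy3 or Cy5 are unaffected. Probes entered the test if Cy3 stood well above background on 0.5 or more of a group's arrays. The share of probes well above background ran from 37.6% through a median of 43.3% to 59.0% in hyperoxia and from 30.1% through 39.0% to 44.7% in normoxia, with means of 44.7% ± 5.85 and 38.0% ± 4.86 (SD, n = 12 each; permutation p = 0.0044, adjusted over 15 measures 0.066). Within scan day 1 the means were 45.0% ± 5.99 on 11 and 40.5% ± 1.83 on 4 arrays (exact permutation p = 0.152). Scan day was uneven, since 11 hyperoxia and 4 normoxia arrays were scanned on day 1 and 1 and 8 on day 2. The fit was therefore repeated with scan day as a block and within day 1, and day 2 held too few hyperoxia arrays for a value of its own.

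Of 25083 probes tested at P17, limma called 1 at an adjusted p under 0.05 (0.00399%). It called 26 when hyperoxia array 3 was left out and 5 without hyperoxia array 4. An unadjusted p under 0.05 was reached by 2934 probes (11.7%), 1689 higher in hyperoxia (6.73%) and 1245 lower (4.96%), and with scan day as a block by 2218 probes (8.84%). No probe separated the groups fully, and 0 of 25083 had ranges that did not overlap. The probe that passed, A_55_P2039110, carries a transcript name that was not paired with a gene here. Its ratio was -2.17, -0.81 and -0.37 (lowest, median and highest) in hyperoxia and -3.42, -2.20 and -1.34 in normoxia. All 12 hyperoxia arrays but the lowest lay above the highest normoxia array, and 12 of 12 lay above the normoxia median. The difference, hyperoxia minus normoxia, was 1.38 ± 0.21 (log2, SE; limma adjusted p = 0.0155). It arose in Cy3, where the difference was 1.29, while that in Cy5 was -0.011. Within scan day 1 it was 1.23, and with scan day as a block 1.26 with an adjusted p of 0.15, so that the call was lost.

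Taking 1 probe for each gene, 12893 genes were tested and 0 passed. An unadjusted p under 0.05 was reached by 1296 genes (10.1%), 721 higher (5.59%) and 575 lower (4.46%). Their differences were small, with a median size of 0.23 and a maximum of 1.24, against a median standard error over all genes of 0.109 and a median SD within groups of 0.27. With scan day as a block 1286 of the 1296 kept their direction and 524 stayed under 0.05, of 1044 genes in all at that level (8.1%).

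The genes with the smallest p and a higher mean in hyperoxia are described first, although none of them passed. Chd4 encodes the remodelling ATPase of the NuRD complex. Its ratio was -0.67, -0.33 and 0.087 in hyperoxia and -1.11, -0.75 and -0.39 in normoxia, with a difference of 0.41 ± 0.080 (limma adjusted p = 0.0958). It was 0.40 with scan day as a block and 0.32 within scan day 1. All hyperoxia arrays lay above the normoxia median, although the ranges overlapped. Trp53, the gene of the tumour suppressor p53, had ratios of -1.28, -0.69 and -0.47 against -1.68, -1.24 and -0.90, and 11 of 12 hyperoxia arrays exceeded the normoxia median. The difference of Trp53 was 0.45 ± 0.090, and with scan day as a block it was 0.48. Hars, which encodes the synthetase that charges histidine transfer RNA, lay at -1.08, -0.78 and -0.40 in hyperoxia and -1.49, -1.13 and -0.83 in normoxia. Its difference was 0.37 ± 0.077, and 0.43 with scan day as a block. Within scan day 1 the differences were 0.45 for Trp53 and 0.38 for Hars, and over all arrays neither passed (limma adjusted p of 0.0958 and 0.105).

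**Figure D1:**
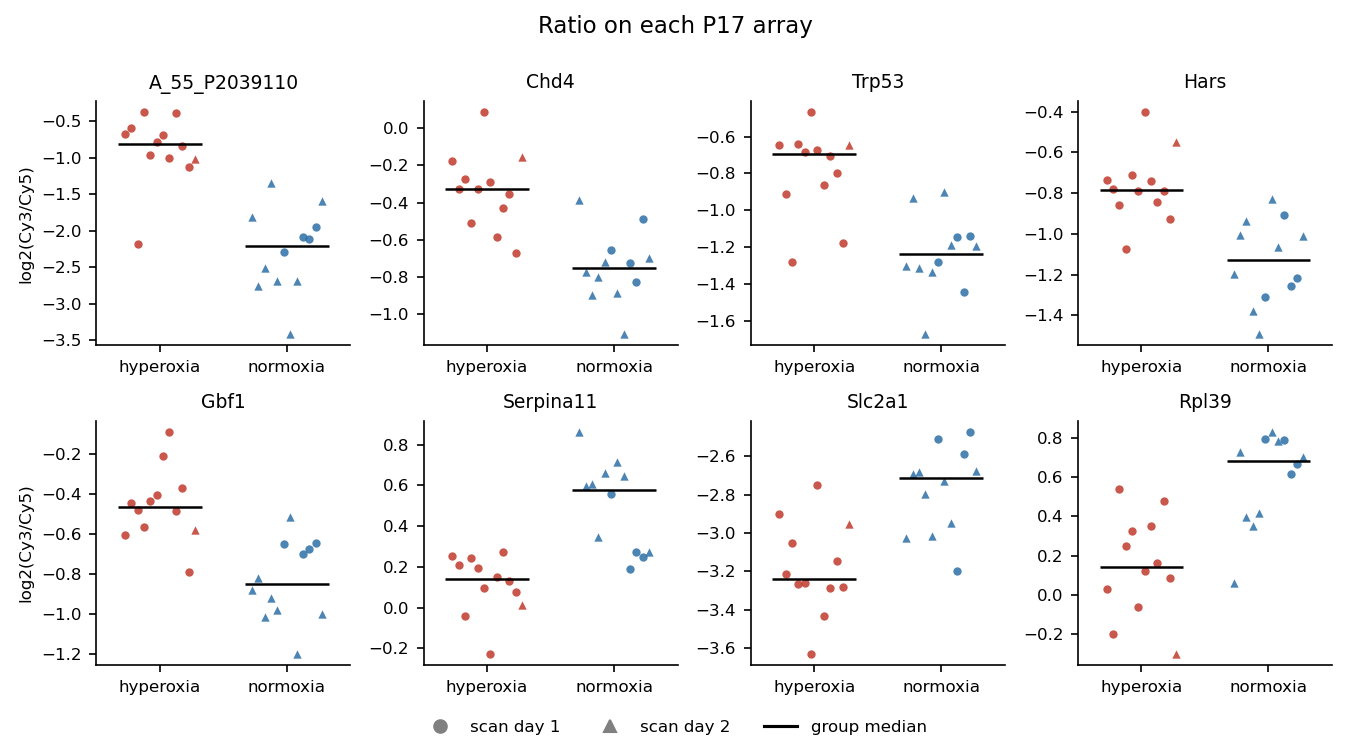
Each point is 1 P17 array, with log2(Cy3/Cy5) on the vertical axis, circles for scan day 1, triangles for scan day 2 and a line at the group median. In A_55_P2039110, Chd4, Trp53, Hars and Gbf1 the hyperoxia median lies above that of normoxia, in Serpina11, Slc2a1 and Rpl39 below it, and the groups overlap in each panel.

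Other genes with a higher mean in hyperoxia changed to unequal degrees once scan day was taken into account. Gbf1, an exchange factor for Arf GTPases at the Golgi, had ratios of -0.79, -0.46 and -0.089 in hyperoxia and -1.20, -0.85 and -0.52 in normoxia. The difference of Gbf1 was 0.38 ± 0.078 over all arrays and 0.22 within scan day 1. Its other probes differed by 0.10 ± 0.054 and 0.028 ± 0.038. Cdk13, a kinase of the RNA polymerase II tail, had a difference of 0.38 ± 0.079, and 0.21 with scan day as a block. Another probe of Cdk13 differed by -0.0079 ± 0.060. Arhgap17, a GTPase activating protein, differed by 0.42 ± 0.094 and by 0.41 with the block, while another probe of it differed by -0.15 ± 0.12. Differences for Pik3cg (0.22 ± 0.048), the catalytic subunit of the leukocyte phosphoinositide 3-kinase gamma, Sesn2 (0.37 ± 0.084), a stress protein that restrains mTORC1, and Rrp36 (0.23 ± 0.051), a factor of ribosomal RNA processing, were accompanied by adjusted p-values of 0.126 each. These 3 differences became 0.17, 0.29 and 0.30 with scan day as a block.

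Genes with less transcript in hyperoxia were led by Serpina11, a member of the serpin family of protease inhibitors. Its ratio was -0.23, 0.14 and 0.28 in hyperoxia and 0.19, 0.58 and 0.87 in normoxia, and no hyperoxia array reached the normoxia median. The difference was -0.38 ± 0.076 (limma adjusted p = 0.0958), -0.28 with scan day as a block and -0.19 within scan day 1. Rpl39, a protein of the large ribosomal subunit, lay at -0.30, 0.14 and 0.54 against 0.062, 0.68 and 0.83. The difference of Rpl39 was -0.45 ± 0.099 and grew to -0.60 with the block, and all 4 of its other tested probes had the same sign. All hyperoxia arrays again lay below the normoxia median. Under median centring without loess, which moved the median of all genes to 0.40, the Rpl39 difference was 0.19 and so turned round, although it stayed below that median.

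In several genes with a lower mean the difference was shared by, or lay mainly in, the reference channel. For H2-Eb1, a beta chain of MHC class II, the ratio was 2.50, 3.28 and 3.71 in hyperoxia and 3.35, 3.63 and 4.15 in normoxia, a difference of -0.53 ± 0.12. In single channels the difference of H2-Eb1 was 0.31 in Cy3 and 0.77 in Cy5. The blood channel was thus brighter in hyperoxia, while the reference channel was brighter still. Within scan day 1 the ratio differed by -0.35. For 2610507I01Rik the differences were -0.32 ± 0.067 in the ratio, 0.096 in Cy3 and 0.37 in Cy5. That ratio differed by -0.14 with scan day as a block and by -0.18 within scan day 1. Gimap9, a GTPase of lymphocytes, differed by -0.83 ± 0.20 in the ratio, -0.57 in Cy3 and 0.25 in Cy5. Another probe of Gimap9, above background on 12 arrays of each group, differed by only -0.050 ± 0.13. Pik3ca, the alpha catalytic subunit of phosphoinositide 3-kinase, differed by -0.29 ± 0.069 in the ratio but by -0.027 in Cy3. Among the 575 lower genes the Cy5 change was the larger in 138, and among the 721 higher genes in 73. The part of the reference channel in these differences was not tested beyond these values. Gm4013 (-0.44 ± 0.11), 6030468B19Rik (-0.31 ± 0.075) and Rora (-0.28 ± 0.068), a nuclear receptor of the circadian clock, completed the lower genes, each with no hyperoxia array above the normoxia median. The block fit gave -0.66 for Gimap9, -0.26 for Pik3ca, -0.55 for Gm4013, -0.27 for 6030468B19Rik and -0.32 for Rora.

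Of the 17 pathway lists, the erythroid genes had the median farthest from 0. The counts of list members that follow are at an unadjusted p under 0.05, a level at which 5.59% of all genes were higher and 4.46% lower, and no member of these lists passed after adjustment (limma). Of 39 members tested, 13 (33.3%) had an unadjusted p under 0.05, all lower in hyperoxia. The median difference was -0.32, compared with 0.01 over all genes, and it was -0.48 with scan day as a block and -0.32 within scan day 1. The 13 members were the globin genes Hbb-b1, Hbb-b2, Hbb-bt, Hba-a1 and Hba-a2, the haem synthesis genes Alas2 and Fech, the membrane and cytoskeleton genes Slc4a1 and Epb41, and Bpgm, Tspo2, Car2 and Gata1, the last encoding the main transcription factor of the lineage. Near-identical globin copies share sequence, so their probes may not tell the copies apart. Hba-a1 had ratios of 4.28, 6.59 and 6.89 in hyperoxia and 6.04, 7.29 and 8.65 in normoxia, a difference of -1.18 ± 0.35 (limma adjusted p = 0.185). Alas2, the first enzyme of haem synthesis in red cell precursors, lay at 4.27, 6.10 and 6.90 against 5.98, 7.02 and 8.41, with a difference of -1.04 ± 0.33. No hyperoxia array exceeded the normoxia median in either gene, hyperoxia arrays 1, 7 and 11 were the lowest of all in both, and the 7 highest normoxia arrays in both were those of scan day 2 other than array 4. Some macrophage genes, but not all, were high on the same low arrays. Retnla was at 4.6, 4.2 and 5.0 on hyperoxia arrays 1, 7 and 11, against a hyperoxia median of 4.76. Adgre1, a surface marker of macrophages, had ratios of 3.9, 3.8 and 4.8 on hyperoxia arrays 1, 7 and 11, the highest of that group against a median of 2.07. On normoxia array 4, the lowest of its group for Hba-a1, Adgre1 was at 5.0, the highest of all. A list of 18 macrophage genes, described below and chosen after values were seen, had mean ratios of -0.34, 2.04 and 3.96 in hyperoxia and -0.40, 1.79 and 4.22 in normoxia, and its part in the erythroid differences was not tested.

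In single channels the erythroid differences were smaller. The list median was -0.097 in Cy3 alone and 0.043 in Cy5 alone, against 0.017 and -0.0093 over all genes. In Cy3 alone the differences were -0.0076 for Hba-a1, -0.13 for Alas2 and -0.097 for Hbb-b1, whereas in Cy5 they were 0.54, 0.39 and 0.41. With scan day as a block the 3 ratios differed by -0.57, -0.50 and -0.81, and 2 of 39 members, both among the 13, were under 0.05 (3.13% of all genes were lower at that level). The mean ratio over the list was 3.59 ± 0.73 in hyperoxia and 3.99 ± 0.41 in normoxia (SD, n = 12 each), and that difference of -0.41 had a permutation p of 0.108 (adjusted over 15 measures 0.542). When arrays were centred on their median without loess, the same difference was 0.12 and the list median 0.18, both below the 0.40 that this scaling gave as the median of all genes. In bulk samples fewer cells of a type and less RNA per cell cannot be told apart.

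The promoters of Alas2 and Hba-a1 are shown because both genes had lower ratios in hyperoxia. Each is a window of 300 bases around the transcription start, most of it before the start, from the RefSeq table of GRCm38.p6. Alas2 lies at chrX:150547167-150547466 (+) and Hba-a1 at chr11:32283422-32283721 (+). Capitals mark GATAA and CACCC on either strand, the cores bound by GATA1 and by factors of the KLF family.
Alas2: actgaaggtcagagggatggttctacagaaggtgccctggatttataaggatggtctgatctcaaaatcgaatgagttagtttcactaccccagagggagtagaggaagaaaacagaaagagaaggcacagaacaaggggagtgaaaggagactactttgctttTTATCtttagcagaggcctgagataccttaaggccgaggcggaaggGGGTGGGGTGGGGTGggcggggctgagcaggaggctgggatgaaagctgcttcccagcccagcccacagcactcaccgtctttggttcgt
Hba-a1: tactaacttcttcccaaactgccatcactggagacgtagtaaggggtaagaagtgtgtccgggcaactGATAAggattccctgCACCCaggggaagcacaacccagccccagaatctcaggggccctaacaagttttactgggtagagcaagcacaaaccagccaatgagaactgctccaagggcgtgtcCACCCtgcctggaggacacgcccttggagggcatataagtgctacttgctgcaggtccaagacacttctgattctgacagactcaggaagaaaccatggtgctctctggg
GATAA occurred in 48.4% of 31 promoters of 25 erythroid genes and in 25.4% of all 32851 promoters of that length, and CACCC in 67.7% and 57.5%. A match of these letters is a description and not a binding site.

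Genes of hypoxia and glycolysis showed no common direction. Of 38 tested, 3 were higher and 1 was lower at an unadjusted p under 0.05, 10.5% against 10.1% of all genes, and the median difference was -0.03. Slc2a1, the glucose transporter GLUT1, had ratios of -3.63, -3.24 and -2.75 in hyperoxia and -3.20, -2.71 and -2.47 in normoxia. No hyperoxia array reached the normoxia median. The difference of Slc2a1 was -0.40 ± 0.093 (limma adjusted p = 0.126), -0.42 with scan day as a block and -0.51 within day 1, but 0.21 under median centring against the median of 0.40 over all genes. The 3 members higher at that level were enzymes of glycolysis, with differences of 0.54 ± 0.16 for Eno1, 0.32 ± 0.11 for Gapdh and 0.31 ± 0.13 for Pgam1. Within scan day 1 the Gapdh difference was 0.12. Hif1a, the oxygen-regulated transcription factor, differed by -0.033 ± 0.14, and its direction changed when single arrays were left out.

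The promoter of Slc2a1 (chr4:119108495-119108794, +) is shown as that of the hypoxia gene with the smallest p, with ACGTG, the core of the hypoxia response element, in capitals on either strand.
Slc2a1: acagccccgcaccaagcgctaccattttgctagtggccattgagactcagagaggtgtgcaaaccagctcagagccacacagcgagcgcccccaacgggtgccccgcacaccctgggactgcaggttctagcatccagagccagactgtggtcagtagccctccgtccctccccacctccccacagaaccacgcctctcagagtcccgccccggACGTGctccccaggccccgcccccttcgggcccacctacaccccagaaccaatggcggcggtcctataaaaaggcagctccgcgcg
ACGTG was found in 52.1% of 48 promoters of 34 genes of the list and in 19.6% of all promoters, which again describes the sequence and says nothing of the factor.

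Ligands and receptors of vessel growth were often too dim to test in blood. Of 41 with a probe 22 were tested, and 1, Notch1, a receptor that restrains sprouting, had an unadjusted p under 0.05 (4.55% against 10.1%), with a difference of -0.15 ± 0.051. Vegfa, the principal growth factor of the hypoxic retina, had ratios of -2.74, -2.22 and -1.82 in hyperoxia and -2.64, -2.05 and -1.38 in normoxia. Its difference of -0.17 ± 0.13 was within the spread of the arrays. Igf1r, the receptor of insulin-like growth factor 1, ranged from -1.25 to 2.90 in hyperoxia and from -1.04 to 0.34 in normoxia, so that its difference of 0.60 ± 0.35 rested on a wide spread and turned to -0.28 with slide as a block.

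**Figure D2:**
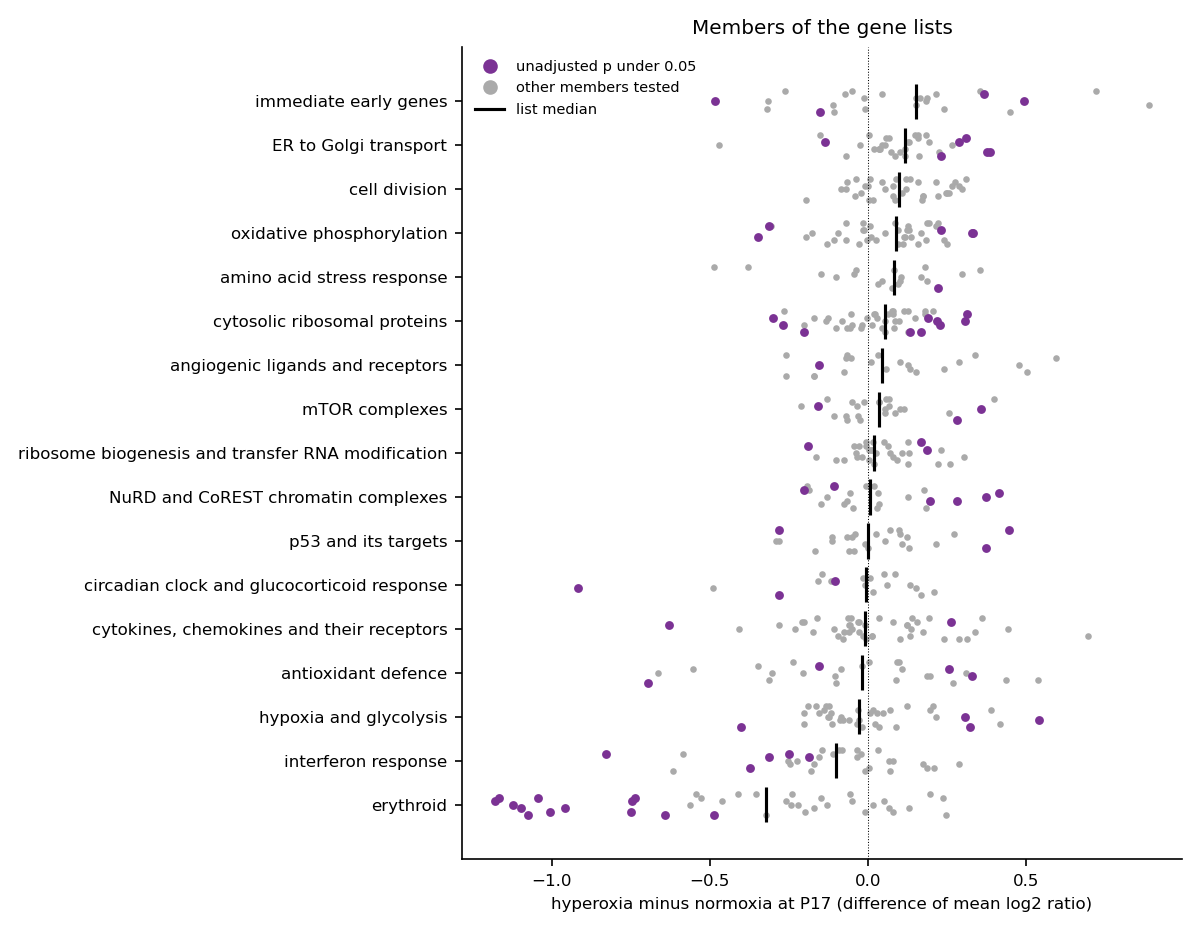
Differences of the mean log2 ratio (hyperoxia minus normoxia at P17) are drawn for the tested members of 17 gene lists, 1 point a gene, with a line at the list median and purple for an unadjusted p under 0.05. The erythroid members reach down to -1.18 while the medians of the other lists lie between -0.10 and 0.15.

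Complexes around Chd4 were examined because of that gene, so their count is a description. Of 22 NuRD and CoREST members tested, 4 were higher (Chd4, Gatad2a, Gatad2b and Mbd3) and 2 lower (Phf21a and Zmym2) at an unadjusted p under 0.05, 27.3% against 10.1% of all genes. Under the scan day block 4 were higher and 0 lower, against 4.96% and 3.13% of all genes. All 4 higher members are NuRD subunits and both lower ones are associated with CoREST. Gatad2a differed by 0.37 ± 0.11 and Mbd3, the methyl-CpG-binding-domain subunit, by 0.28 ± 0.11, while a second probe of Gatad2a differed by -0.030 ± 0.12. The difference of Mbd3 was 0.44 with scan day as a block. The median over the list was 0.01.

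Transport between the endoplasmic reticulum and the Golgi had 5 higher and 1 lower of 35 members at an unadjusted p under 0.05, 17.1% against 10.1% of all genes, and a median difference of 0.12. Cope, a subunit of the COPI coat, lay at -0.73, -0.34 and -0.022 in hyperoxia and -0.92, -0.67 and -0.36 in normoxia. Its difference was 0.31 ± 0.080 (limma adjusted p = 0.133) and 0.44 within scan day 1. Copa, another COPI subunit, differed by 0.39 ± 0.13, Ykt6, a SNARE of Golgi traffic, by 0.23 ± 0.078 and Mia3, an export factor for large cargo, by 0.29 ± 0.14. Of the 35 genes 7 were higher and 0 lower at that level with scan day as a block, against 4.96% and 3.13% of all genes. None passed after adjustment, and 1 member, Gbf1, passed with the software signals described below.

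Of 25 genes tested around p53, 2 were higher, Trp53 and Sesn2 with the differences given above, and 1 was lower, 12.0% against 10.1% of all genes, and the median was 0.00018. The lower member was Plk2, a p53 target, with -0.28 ± 0.097. Cdkn1a, the cell cycle inhibitor p21, differed by -0.043 ± 0.15, and Mdm2, the ligase that degrades p53, by 0.11 ± 0.096, or -0.054 with scan day as a block. In the list of mTOR complexes 3 of 25 members reached an unadjusted p under 0.05, 12.0% against 10.1% of all genes. With higher means there were Eif4ebp2 (0.36 ± 0.090), a repressor of cap-dependent translation, and Rragc (0.28 ± 0.13), a GTPase of amino acid sensing, and with a lower one Tsc1 (-0.16 ± 0.076). The difference of Eif4ebp2 was 0.23 with scan day as a block and 0.15 within scan day 1. Mtor differed by 0.085 ± 0.042 and was above background on 12 hyperoxia and 5 normoxia arrays. Deptor, an mTOR inhibitor named by the study, had ratios of -0.75, -0.39 and 0.34 against -0.63, -0.40 and -0.042, and its difference was 0.034 ± 0.089 (limma adjusted p = 0.914).

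Of 46 ribosomal protein genes tested, 7 were higher and 3 lower at an unadjusted p under 0.05, 21.7% against 10.1% of all genes, with a median of 0.05. Rpl23 (0.31 ± 0.091) and Rpl13 (0.22 ± 0.076) had higher means in hyperoxia, and Rps24 (-0.30 ± 0.081), Rpl38 (-0.27 ± 0.086) and Rplp2 (-0.20 ± 0.082) lower ones. The lower group also included Rpl39 among all genes, though that gene was not a member of the list. The other probes of Rps24 differed by 0.27 ± 0.15 and 0.049 ± 0.070, and Rps24 was 0.089 in Cy3 alone. Ribosomal protein pseudogenes are many, so these probes can take up signal of near copies. In ribosome biogenesis and transfer RNA modification Trmt1l (0.19 ± 0.040) and Rrp9 (0.17 ± 0.060) were higher at that level and Dkc1 (-0.19 ± 0.087), the pseudouridine synthase dyskerin, lower, of 33 tested (9.09% against 10.1%). Trmt1l was above background on 12 hyperoxia and 4 normoxia arrays, so that it was tested only through the group in which it was brighter. Under the scan day block 5 of the 33 were higher and 0 lower, against 4.96% and 3.13% of all genes. The list median was 0.11 in that fit in place of 0.02. The difference of Dkc1 was -0.11 with scan day as a block. Another probe of Dkc1 differed by 0.078 ± 0.044 and another of Trmt1l by 0.0050 ± 0.054.

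Oxidative phosphorylation had 3 higher and 2 lower members of 42 at an unadjusted p under 0.05, 11.9% against 10.1% of all genes. Under the scan day block 7 were higher and 3 lower, against 4.96% and 3.13% of all genes. Atp5d (0.33 ± 0.088), a subunit of ATP synthase, Uqcrc1 (0.33 ± 0.14) of complex III and Ndufa10 (0.23 ± 0.077) of complex I were higher, and Ndufa4 (-0.35 ± 0.15) and Cox6a1 (-0.32 ± 0.15) lower. The difference of Uqcrc1 was 0.54 with scan day as a block. Among antioxidant genes Keap1 (0.33 ± 0.089), the sensor that holds Nrf2 inactive, and Prdx1 (0.26 ± 0.12) were higher, while Gpx1 (-0.70 ± 0.26) and Sod2 (-0.15 ± 0.072) were lower, of 27 tested (14.8% against 10.1%). In the block fit 1 of the 27 was higher and 0 lower (8.1% of all genes). Gpx1, which red cells contain in abundance, differed by 0.025 in Cy3 alone, and Sod2 differed by -0.097 with scan day as a block. Hmox1, the haem-degrading enzyme, differed by -0.20 ± 0.32.

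Of 30 interferon response genes tested, 5 (16.7%) were lower and 0 higher at an unadjusted p under 0.05, against 4.46% and 5.59% of all genes. The list median was -0.10, or -0.24 with scan day as a block, -0.19 within scan day 1 and -0.026 with the erythroid mean as a covariate. Rsad2, an antiviral enzyme, ranged over 4.70, 7.68 and 8.23 in hyperoxia and 6.63, 8.06 and 9.21 in normoxia, a difference of -0.83 ± 0.36. The sensors and effectors Oasl1 (-0.37 ± 0.13), Rtp4 (-0.31 ± 0.14), Zbp1 (-0.25 ± 0.088) and Ddx58 (-0.19 ± 0.087) had the same sign. Other probes of Oasl1, Rsad2 and Zbp1 differed by -0.056 ± 0.11, -0.38 ± 0.30 and -0.27 ± 0.087. Isg15, a ubiquitin-like protein, varied more widely, from 2.59 to 5.83 in hyperoxia, and its difference of -0.59 ± 0.39 was not separable from that spread. With scan day as a block 5 of the 30 were lower (3.13% of all genes), 3 of them shared with the fit without it, and no member passed in either fit (limma). Under median centring the list median was 0.30, positive but below the 0.40 of all genes.

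In cell division 0 of 36 genes reached an unadjusted p under 0.05, against 10.1% of all genes, for instance Mki67 with a difference of 0.27 ± 0.29. The means of 77.8% of the members were higher in hyperoxia, against 54.4% of all genes, and the list median was 0.098, or 0.40 with scan day as a block and 0.20 within scan day 1, with 0 members under that p in the block fit as well. Cytokines, chemokines and their receptors had 1 higher, Il16 (0.26 ± 0.12), and 1 lower, Ccr7 (-0.63 ± 0.28), the homing receptor of naive lymphocytes, of 45 tested (4.44% against 10.1%). In the circadian and glucocorticoid list 3 of 19 were lower (15.8%, against 4.46% of all genes), Rora, Nr1d2 (-0.10 ± 0.050) and Zbtb16 (-0.92 ± 0.23), a transcription factor of innate-like T cells induced by glucocorticoids. The ratio of Zbtb16 was -1.84, -0.53 and 1.11 in hyperoxia and -0.067, 0.47 and 1.23 in normoxia, and 1 of 12 hyperoxia arrays exceeded the normoxia median. In single channels that difference was -0.20 in Cy3 and 0.77 in Cy5, and with scan day as a block the ratio differed by -0.91. Immediate early genes split into Klf4 (0.50 ± 0.23) and Fosb (0.37 ± 0.14) with higher means and Dusp2 (-0.48 ± 0.20) and Egr3 (-0.15 ± 0.063) with lower ones, which are 4 of 25 against 10.1% of all genes. In that list 0 of 25 were under that p with scan day as a block (8.1% of all genes), where Dusp2 differed by -0.29. Amino acid stress genes had 1 of 19 (5.26%), Sars (0.22 ± 0.094), the seryl transfer RNA synthetase. Atf5, a factor of that response, ran from -0.73 to 3.16 in hyperoxia and from -2.15 to 3.62 in normoxia, with a difference of -0.10 ± 0.54.

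The labelled cell type was checked against markers. Markers of T cells, B cells and monocytes were above background on at least 0.5 of the arrays for all members with a probe (19, 16 and 20), and those of natural killer cells for 12 of 14. Red cell, platelet and neutrophil genes were detected as well, so the preparations were not free of these cells. The mean marker ratios did not differ detectably between the groups after adjustment over 15 measures. Under median centring the mean of the liver markers differed by 0.34 (adjusted permutation p = 0.00585), less than the 0.40 of all genes. T cell markers averaged 2.08 ± 0.56 in hyperoxia and 2.14 ± 0.52 in normoxia, B cell markers 1.93 ± 0.43 and 1.99 ± 0.26, and monocyte markers 1.65 ± 0.41 and 1.49 ± 0.51 (SD, n = 12 each; adjusted permutation p of 0.8 each). Red cell markers averaged 3.73 ± 0.69 and 4.23 ± 0.43, a difference of -0.50 with an adjusted permutation p of 0.325. Within scan day 1 it was -0.31.

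Some transcripts of other cells varied by several log2 units between arrays within both groups. These genes were picked after their values were seen and are described without a test. Dntt, the terminal transferase of immature lymphocytes, had ratios of -0.35, 0.84 and 6.14 in hyperoxia and -0.36, 1.02 and 6.10 in normoxia, and exceeded 2 on 5 of 12 arrays in each group. Ccr9, a homing receptor of thymocytes, exceeded 2 on 4 of 12 in each. C4b, a complement component, ran over -0.50, 3.61 and 6.05 in hyperoxia and -0.34, 4.01 and 6.66 in normoxia. Of further genes known from resident tissue macrophages, Alox15, Cd5l and Marco exceeded 2 on 9, 9 and 9 hyperoxia arrays and on 7, 7 and 5 normoxia arrays, and Prg4 on 10 of 12 and on 6 of the 11 with a value. Adgre1 exceeded 2 on 6 arrays of each group, Lyve1 on 2, Fn1 on 1 and Gata6 and Vsig4 on 0. The median difference over 18 such macrophage genes was 0.50, with 0 under an unadjusted p of 0.05, and it was 0.13 with scan day as a block and -0.20 within scan day 1. The platelet integrin Itga2b ran over 2.22, 5.33 and 6.52 in hyperoxia and 0.85, 5.39 and 6.59 in normoxia. Of the markers of other tissues, 6 of 12 endothelial, 6 of 14 muscle and 4 of 8 liver genes with a probe were above background on at least 0.5 of the 24 arrays, and 2, 1 and 1 on all 24. Others of these markers, namely the endothelial genes Cdh5, Tek, Cldn5 and Robo4, the muscle genes Pln, Ryr2, Ckm and Myh4 and the liver genes Ttr and Apoa1, were above background on 0 of 24 arrays.

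**Figure D3:**
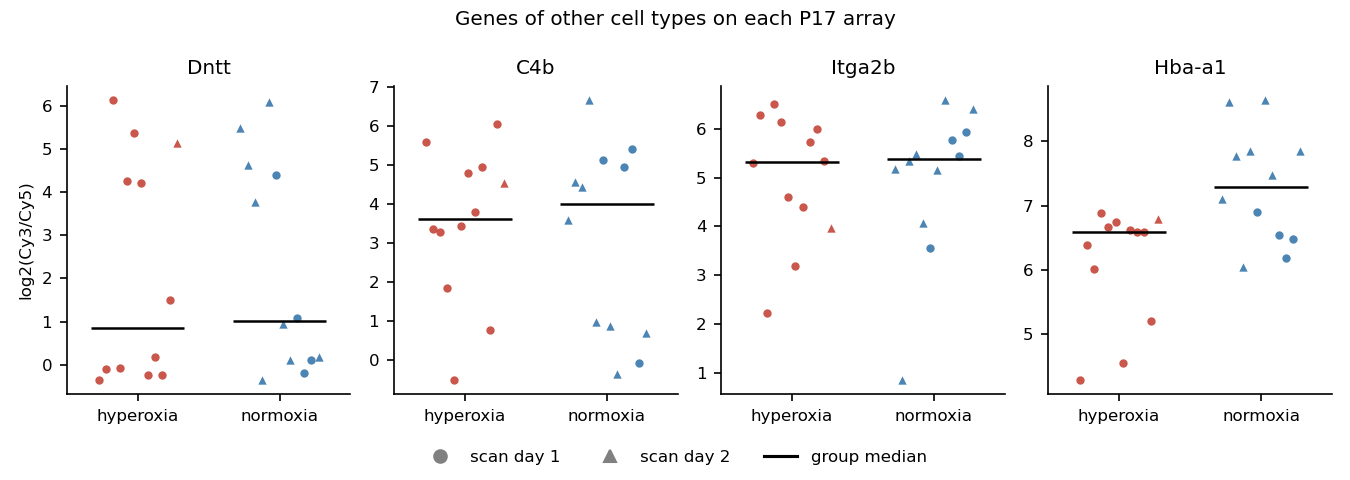
The log2(Cy3/Cy5) of 4 genes on each P17 array is drawn with circles for scan day 1, triangles for scan day 2 and a line at the group median. Dntt, C4b and Itga2b span several log2 units within both groups with similar medians, whereas the Hba-a1 median is 6.59 in hyperoxia and 7.29 in normoxia.

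Calls depended on how spots were summarised. With the scanner software's processed signals, which are not shrunk for dim spots, 63 of 25083 probes passed (0.251%), 45 higher and 18 lower in hyperoxia. They stood for 44 named genes and 19 probes without a symbol. After normexp and loess all 63 had the same direction and 59 an unadjusted p under 0.05, and with scan day as a block none of them passed. The median difference of the 45 higher probes was 1.09 with the software signals and 0.16 after normexp and loess, and that of the 18 lower ones was -1.42 and -0.26. Detection differed too, since 37 of the 45 were above background on more hyperoxia than normoxia arrays, 22 of them on fewer than 6 of the 12 normoxia arrays and 8 on none. Over all tested probes 10142 were above background on more hyperoxia arrays and 500 on more normoxia arrays. The part of the unequal detection in these calls was not tested.

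Among the higher calls, Trp53 (software difference 1.17, adjusted p = 0.000571), Hars (1.08, adjusted p = 0.000571) and Gbf1 (0.73, adjusted p = 0.0304) were above background on 12 hyperoxia arrays and on 12, 11 and 12 normoxia arrays, respectively (limma). Trmt1l (1.54) and Rrp1b (1.21), a nucleolar protein, were above background on 12 hyperoxia arrays but only 4 and 3 normoxia arrays, so that they entered the test through the group in which they were brighter. After loess Rrp1b differed by 0.020 ± 0.070. Greater software differences belonged to genes near background. 1700055K11Rik (1.79) and Rasal1 (1.64), a Ras GTPase activating protein, were detected on 11 hyperoxia and 2 normoxia arrays. Rnd2, a small GTPase of neurons, Dlx5, a homeobox factor, Slc25a48, a mitochondrial carrier, and the odorant receptor gene Olfr1342 were detected on 7, 7, 8 and 6 hyperoxia arrays and on 0 normoxia arrays. For them only approximate bounds can be had, from mean Cy3 levels after loess and Aquantile. With dim normoxia arrays set to the lowest signal above background, brightness in hyperoxia was 1.04-fold, 1.07-fold, 1.05-fold and 1.03-fold that of normoxia. Hyperoxia arrays that were not above background kept their measured values, so these folds are not strict lower bounds. Of the lower calls, Gm4013 (-1.65), Serpina11 (-1.03) and Il4i1 (-0.89), an amino acid oxidase of immune cells, were above background on all 24 arrays. Rasgef1a (-2.61) was detected on 11 and 9 arrays and had differences of -0.17 in Cy3 and 0.72 in Cy5. Cyp19a1 (-1.22), the aromatase, was detected on 1 hyperoxia and 6 normoxia arrays.

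**Figure D4:**
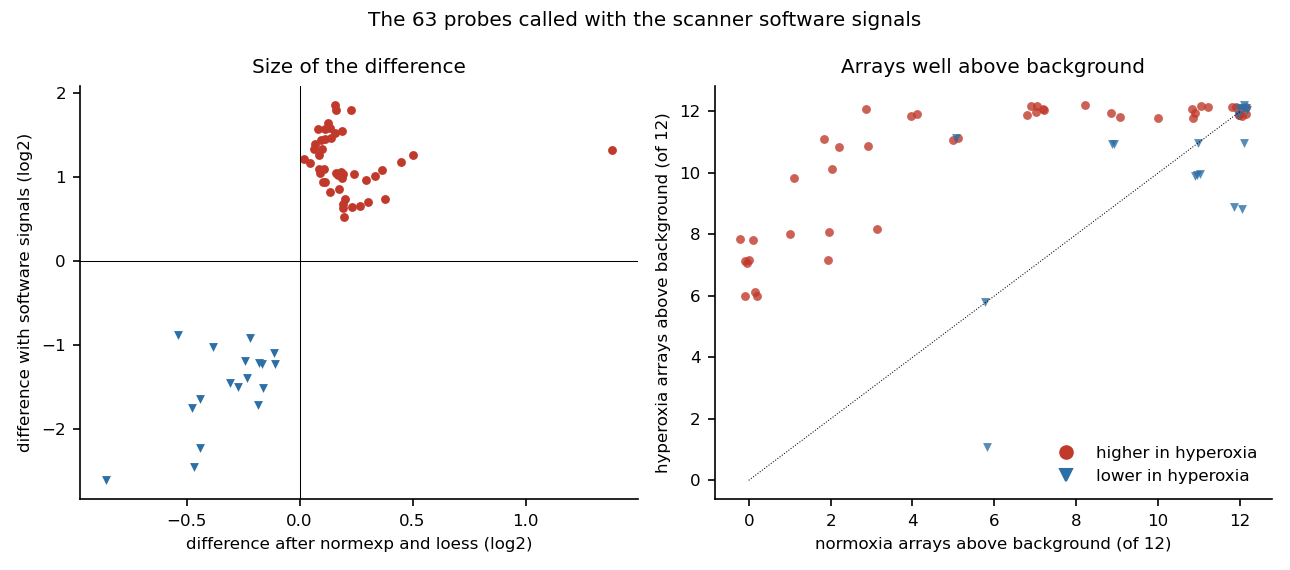
The 63 probes called with the software signals are drawn, at left by their log2 difference after normexp and loess (horizontal) and with the software signals (vertical), at right by the number of normoxia and hyperoxia arrays above background, with points spread slightly around whole numbers. Most higher probes (circles) lie close to 0 on the horizontal axis at left and above the diagonal at right.

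A list of 22 blood genes named by the study was followed too. It was chosen on these same samples, so it is no independent evidence of direction. Of its members 18 had a probe by name and 14 were tested, of which 4 were higher (Trp53, Gbf1, Trmt1l and Mkln1) and 2 lower (Serpina11 and Gm4013) at an unadjusted p under 0.05, 42.9% against 10.1% of all genes, with Trmt1l tested only through hyperoxia as above. Mkln1, an intracellular mediator of cell spreading, differed by 0.19 ± 0.047, and another probe of it by -0.047 ± 0.043. Members with a greater p were Tbc1d17 (0.18 ± 0.088, or 0.094 with scan day as a block), Hmg20b (-0.19 ± 0.12), Fam20b (0.061 ± 0.13), Sec22a (0.057 ± 0.040), Cers4 (0.034 ± 0.055), Rrp1b, Deptor and Taf4 (-0.015 ± 0.089). Hmg20b shows that probes can disagree, since another probe of it differed by 0.19 after loess and was called with the software signals. The 4 members that were not tested, Gm29260, Nol4, Ccl20 and Nbeal1, were above background on 1, 0, 0 and 5 hyperoxia arrays and on 1, 1, 2 and 2 normoxia arrays.

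Finally, the P17 differences were set against those at P12, at the end of exposure, and at P28, in samples that took no part in choosing the genes. The contrasts between ages also use the P17 arrays on which the genes were chosen. For the named genes they are therefore not independent of that choice. The titles of the P12 arrays give 10 mouse numbers in both oxygen groups, although a mouse can belong to only one of them, so the P12 values rest on the group names of those titles. At P12 20.1% and at P28 17.5% of probes had an unadjusted p under 0.05, and 0 passed at either age (limma). With the repeated P12 numbers as a block, added after the data were seen, 941 of 28584 probes passed at P12. A test of the difference between the P17 and the P12 effect called 74 of 26610 probes (0.278%), 34 with the more positive effect at P17 and 40 with the more negative one. With scan day as a block it called 9 (0.0338%). With the software signals these counts were 112 (0.421%) and, with the block, 7 (0.0263%). Against P28 0 of 26075 probes passed, or 1 with the block (0.00384%).

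The probe A_55_P2039110 differed by -0.17 ± 0.18 at P12, by 1.38 ± 0.21 at P17 and 0.27 ± 0.10 at P28. Its effect at P17 exceeded that at P12 by 1.56 (adjusted p = 0.000891), and by 1.49 with scan day as a block (adjusted p = 0.0109). Trp53 differed by -0.28 ± 0.078 at P12, by 0.45 ± 0.090 at P17 and by 0.051 ± 0.10 at P28. The change of its effect from P12 to P17 was 0.72 (adjusted p = 0.0055), and 0.68 with the block (adjusted p = 0.0429; limma). With the software signals the change for Trp53 was 1.53, and 1.39 with the block (adjusted p of 3.99e-05 and 0.00144; limma). Cdk13 went from -0.28 ± 0.10 at P12 to 0.38 ± 0.079 at P17, a change of 0.66 that passed (adjusted p = 0.0123) but did not with the block (adjusted p = 0.125). For Chd4, whose effects were 0.063 ± 0.12 at P12 and 0.041 ± 0.12 at P28, the change from P12 to P17 of 0.35 did not pass (adjusted p = 0.185), nor did that of Slc2a1 (-0.38, adjusted p = 0.183) or Hars (0.44, adjusted p = 0.0641). For Hars the software signals gave 1.07 (adjusted p = 0.00692), and the same with the block (adjusted p = 0.0276; limma), so that its call depended on the signals used.

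The median of the erythroid list was negative at each age, although 20.5% of its members had a higher mean in hyperoxia at P17. Hba-a1 differed by -1.04 ± 0.39 at P12, -1.18 ± 0.35 at P17 and -0.70 ± 0.36 at P28, and the change of its effect between P12 and P17 was -0.14 (limma adjusted p = 0.913). With scan day as a block that change turned to 0.34 (limma adjusted p = 0.83). The list median was -0.83 at P12 and -0.47 at P28. Gimap9 (-0.47 at P12, -0.41 at P28) and Gm4013 (-0.28 and -0.36) also kept the sign they had at P17. For Gimap9 this holds for the brightest probe, while its other probe differed by only -0.050 ± 0.13 at P17.

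**Figure D5:**
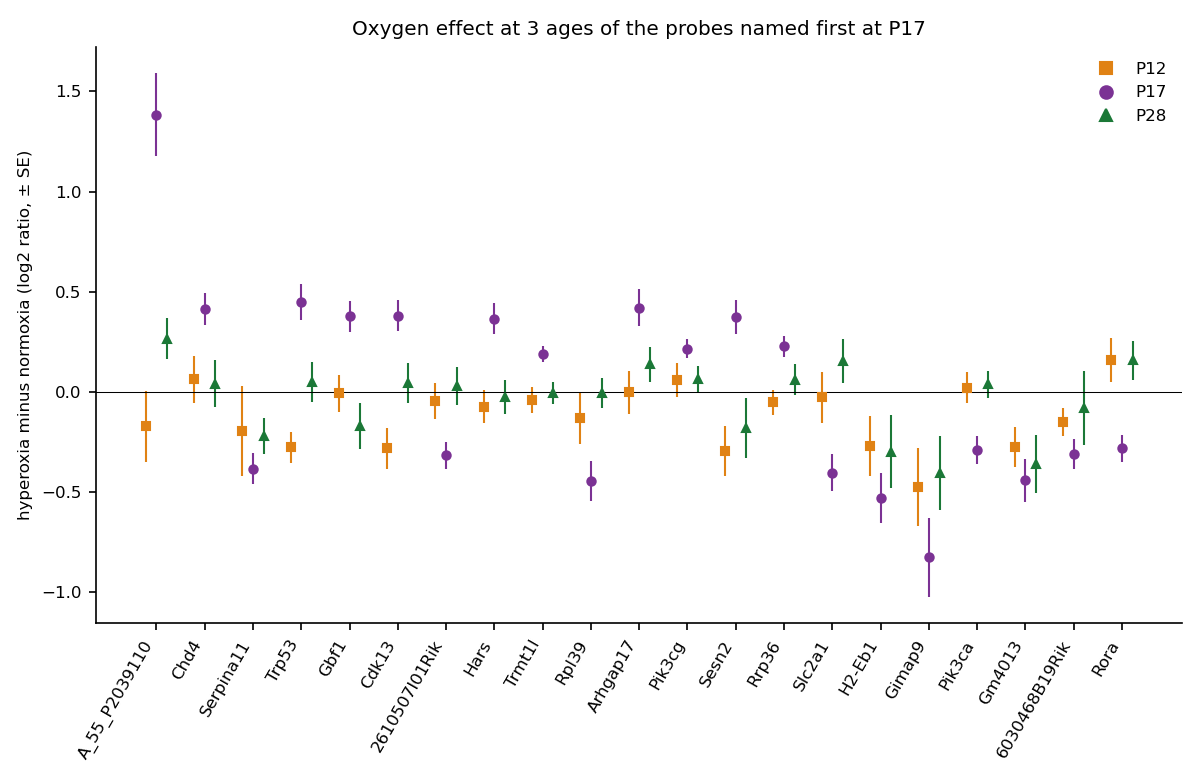
For the called probe and the 20 genes with the smallest p at P17, the difference of the mean log2 ratio (hyperoxia minus normoxia) is drawn at P12, P17 and P28 with bars of 1 SE. The P17 values of A_55_P2039110 and Trp53 stand apart from those of P12, while Gimap9 and Gm4013 lie below 0 at each age.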

How the data were processed

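Total RNA of blood mononuclear cells was hybridised with a universal reference RNA to 2-colour Agilent mouse arrays of 62976 spots. Per the file headers, the authors extracted spot intensity values with Feature Extraction 10.7.3.1, and a matrix of normalized log2 values that they deposited runs as Cy3 over Cy5. Ratios were derived from the deposited median intensities with limma 3.58.1 under R 4.3.3, by normexp background correction (offset 50, which draws the ratios of dim spots toward 0) and loess within arrays. Without controls and outlier spots, averaging repeated spots gave 56605 probes, of which 32994 were matched to 22911 genes through a RefSeq table of GRCm38.p6. Each gene was represented by the probe that was brightest in Cy3 on average over the 24 arrays.

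The groups were compared with lmFit and eBayes of limma and Benjamini-Hochberg adjustment over all probes tested, a moderated test of the kind the study names in its methods for GeneSpring GX. Contrasts between ages came from 1 fit of 6 groups. Measures per array were compared by 2-sided permutation tests with 100000 resamples, or by enumeration within scan day 1. The fit was tested on simulated data. The members, gene lists and tests were chosen with earlier results of these data known. Named are the probe that passed, the 10 genes with the smallest p in each direction, 3 members of each list and further fixed genes, the 8 greatest software calls in each direction, and the blood genes of the study. The number of arrays limits the precision. Software signals, the deposited matrix, median centring, Cy3 alone, filters, slide, scan day, array weights, covariates and single arrays left out were tried as alternatives.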

Additional observations from a re-analysis of the deposited data

Results flagged for a closer look

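Some values of the named genes stood out between ages or within a group. The difference of the oxygen effect, P17 minus P12, passed the threshold in 1 fit of all 6 groups (limma) for 6 of the named probes. It was 1.56 for A_55_P2039110 (adjusted p = 0.000891), 0.72 for Trp53 (adjusted p = 0.0055), 0.66 for Cdk13 (adjusted p = 0.0123), 0.72 for 1700055K11Rik (adjusted p = 0.0123), 0.67 for Sars (adjusted p = 0.0391) and -0.42 for Tsc1 (adjusted p = 0.0405). At P17 1700055K11Rik was above background on 11 hyperoxia and 2 normoxia arrays, so its value rests on signals near background. With scan day as a block A_55_P2039110 and Trp53 still passed, while the adjusted p was 0.125 for Cdk13, 0.0622 for 1700055K11Rik, 0.134 for Sars and 0.125 for Tsc1.

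In 42 checks of single groups for a value far from the rest, 3 stood apart, and chance flags about 1 in 20. The highest P12 hyperoxia array of 2610507I01Rik was at 0.36 with the nearest at 0.017. The highest P28 hyperoxia array of Hars was at -0.86 with the nearest at -1.29, and that of Serpina11 at 0.49 with the nearest at 0.097. The P17 groups hold 12 arrays and were not checked in this way.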

How the results depend on the processing

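Of the comparisons of a named gene at P17 with its value under an alternative, single arrays aside, 1316 kept their direction and their side of the threshold, 184 passed only under the alternative, 5 passed only as reported and 64 turned round. Of the 25083 probes tested, 1 passed as reported, without a probe filter (56605 probes tested), with a filter on all 24 arrays (13801 probes tested) and with Xist as a covariate. The number was 63 with the scanner software signals and with the deposited matrix, 4 with Cy3 alone, 29 with all 6 groups in 1 fit, 1105 with array weights, 506 with the erythroid mean as a covariate and 4942 with median centring and no loess. It was 0 with slide as a block (1060 at an unadjusted p under 0.05), with scan day as a block (2218), on scan day 1 alone (1211) and with the software signals and scan day as a block (2268). Alternatives added after the data were seen gave 323 for Cy5 alone, 185 with duplicateCorrelation on slide, 205 without hyperoxia arrays 3 and 4, and 0 on scan day 1 alone with the software signals (1516). Leaving out single arrays gave 1 to 26 probes, with 26 without hyperoxia replicate 3 and 5 without hyperoxia replicate 4. Under median centring 4922 of the 4942 calls were higher and 20 lower, the median over all probes moved from 0.017 to 0.33, and directions there are relative to that shift. The cause of these changes was not tested.

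Under median centring these differences turned round at P17: Rpl39 (0.19), Slc2a1 (0.21), H2-Eb1 (0.088), Pik3ca (0.069), Rora (0.16), Sod2 (0.23), Plk2 (0.096), Tsc1 (0.19), Dkc1 (0.059), Rps24 (0.33), Rpl38 (0.36), Zbp1 (0.22), Oasl1 (0.14), Mthfd2 (0.11), Egr3 (0.0024), Dusp2 (0.12), Nr1d2 (0.15), Vegfa (0.32), Hif1a (0.54), Cdkn1a (0.46), Hmox1 (0.38), Isg15 (0.041), Atf5 (0.52), Dbp (0.60), Taf4 (0.48) and Hmg20b (0.43). The list medians became hypoxia and glycolysis (0.52), angiogenic ligands and receptors (0.42), antioxidant defence (0.55), p53 and its targets (0.42), mTOR complexes (0.45), NuRD and CoREST chromatin complexes (0.50), ER to Golgi transport (0.69), ribosome biogenesis and transfer RNA modification (0.52), cytosolic ribosomal proteins (0.68), oxidative phosphorylation (0.68), interferon response (0.30), amino acid stress response (0.68), immediate early genes (0.67), circadian clock and glucocorticoid response (0.35), cytokines, chemokines and their receptors (0.41) and study blood genes (0.36). Mean ratios per array that turned positive were erythroid list (0.12), T cell (0.47), B cell (0.37), natural killer cell (0.14), neutrophil (0.33), dendritic cell (0.38), platelet and megakaryocyte (0.35), erythroid cell (0.014), haematopoietic progenitor (0.30) and endothelial cell (0.27).

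Further turned differences at P17 were found with Cy3 alone for 2610507I01Rik (0.096), H2-Eb1 (0.31), Gpx1 (0.025), Dkc1 (0.15), Rps24 (0.089), Nr1d2 (0.044) and Hif1a (0.0016), with the software signals for Nr1d2 (0.17) and Cdkn1a (0.14), with slide as a block for Igf1r (-0.28), Hif1a (0.0020), Mdm2 (-0.0073) and Deptor (-0.00076), with scan day as a block for Hif1a (0.0031), Mdm2 (-0.054) and Dbp (0.041). They were found also with scan day 1 alone for Mdm2 (-0.056), Dbp (0.050) and Fam20b (-0.013), with the software signals and scan day as a block for Mdm2 (-0.025) and Fam20b (-0.0097), with the software signals on scan day 1 alone for Mdm2 (-0.020), Dbp (0.017) and Fam20b (-0.085), with array weights for Mcm3 (-0.073), Cdca8 (-0.030) and Atf5 (0.24), with the erythroid covariate for Mthfd2 (0.040), Vegfa (0.0017), Isg15 (0.049), Atf5 (0.72) and Fam20b (-0.052), with Xist as a covariate for Atf5 (0.069), with duplicateCorrelation on slide for Rrp1b (-0.0078), with hyperoxia arrays 3 and 4 left out for Cdkn1a (0.032) and Dbp (0.031). The deposited matrix gave the same reversals as the software signals (Nr1d2 0.17 and Cdkn1a 0.14).

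By more than the spread between arrays, list medians moved with Cy3 alone to study blood genes (0.11), with the software signals to p53 and its targets (0.073), mTOR complexes (0.15) and study blood genes (0.65), with the software signals and scan day as a block to mTOR complexes (0.21), ribosome biogenesis and transfer RNA modification (0.28), interferon response (-0.36) and study blood genes (0.48), with the software signals on scan day 1 alone to angiogenic ligands and receptors (-0.23), mTOR complexes (0.17), circadian clock and glucocorticoid response (-0.38) and study blood genes (0.29), and with the deposited matrix to the values of the software signals. Medians near 0 also changed sign within that spread, among them with the software signals NuRD and CoREST (-0.096), hypoxia and glycolysis (0.037), oxidative phosphorylation (-0.0053) and amino acid stress (-0.017), with Cy3 alone NuRD and CoREST (-0.076) and on scan day 1 alone the angiogenic list (-0.045). Of the mean ratios, monocyte (-0.11) and basophil, eosinophil and mast cell (-0.0076) turned on scan day 1 alone and haematopoietic progenitor (0.13) with the software signals. The software signals also turned P12 Chd4 (-0.032), P12 Gbf1 (0.011), P12 Hars (0.0039), P12 Trmt1l (0.0048), P12 Slc2a1 (0.13), P28 Chd4 (-0.039), P28 Hars (0.18) and P28 Trmt1l (0.30).

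With single arrays left out, the genes that turned ranged as follows: Atf5 -0.48 to 0.14, Cdkn1a -0.10 to 0.016, Dbp -0.050 to 0.012, Deptor -0.029 to 0.070, Hif1a -0.12 to 0.017, Rrp1b -0.014 to 0.052, Taf4 -0.055 to 0.023. No paired analysis was possible because the P17 groups share no replicate number in the labels. The change of the oxygen effect from P12 to P17 passed for 74 probes, 9 with scan day as a block, 112 with the software signals and 7 with both. At P12 10 mouse numbers occur in both groups. Deviations of same-numbered arrays correlated from -0.64 to 0.71, with a median of 0.40 against -0.077 for arrays of other numbers. The correlation was over 0.1 in 8 of 10 pairs, and 2 of 10 arrays correlated best with their own number. These values do not settle whether the numbers mark pairs, and the main fit did not take them as such. With these numbers as a replicate block, added after the data were seen, that count was 108 (71 of them among the 74), and the count at P12 itself 941 against 0. Spots at or near background limit what the arrays can show, and of the probes tested 13801 were above background on all 24 arrays.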
